A study of Mus musculus with 20 samples.

Results

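Dark zone germinal centre B cells were the 452 cells that the authors' table of cells names DZ in its supervised annotation. They were 33.1% of 1367 eYFP+ B cells and plasma cells sorted one by one from lymph node. On the 19 plates with at least 5 dark zone cells this share was 33.0 ± 4.89% (SD), from 22.2 to 40.3%. It depends on how many cells were sorted from each gate, set by surface protein, and is not a frequency in the tissue. The C57BL/6 mice had received NP-KLH, a hapten on a carrier protein, in Sigma Adjuvant System, and cells were taken on day 15 of the primary response, 4 days after tamoxifen. The labels give neither the allele that drives eYFP nor the number of mice. Both groups share all of these conditions and differ in the sampleID, C57BL/6F with 10 plates and 216 dark zone cells and C57BL/6M with 10 plates and 236, so that sex, animal and handling cannot be told apart. The rest were annotated as plasma (480 cells), light zone (278), memory-like pre-plasma (63), light-to-dark zone (48), pre-memory (17) and activated pre-plasma cells (29). Each cell had 5′ transcript counts from FB5P-seq, a plate-based single-cell method, 10 fluorescence values read at the sort and, where it could be assembled, its antibody sequence.

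A germinal centre is the structure in a lymph node where B cells that met an antigen multiply and mutate their antibody genes. In its dark zone, the cells divide and mutations enter the variable segments, most often inside short sequence motifs called hotspots. Cells with the receptor CXCR4 are held there by its ligand CXCL12, and in the light zone they take up antigen, show it on MHC class II to T helper cells and are selected to return, to become plasma cells or to become memory cells.

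The mutated heavy chains themselves are the most direct record of this process, and those of dark zone cells are shown first. The most frequent variable segments were IGHV1-72, in 34 of 243 dark zone cells with a deposited heavy chain (14.0%), and IGHV1-22, in 26 (10.7%). IGHV1-72 is the segment long known to dominate the response of C57BL/6 mice to NP. The 126 bases below run from IMGT position 79 to 225, without the gaps of that numbering. They cover the first and second complementarity determining regions (CDR1 and CDR2), the loops that touch antigen, with the framework between them. They end in the start of the third framework, in which position 197 lies. Each line is the germline or the heavy chain of 1 dark zone cell from the deposited table, and capitals mark bases that differ from the germline.
IGHV1-72*01 germline: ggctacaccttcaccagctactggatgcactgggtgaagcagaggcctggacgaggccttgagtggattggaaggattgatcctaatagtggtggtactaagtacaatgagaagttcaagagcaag
IGHV1-72*01 cl647: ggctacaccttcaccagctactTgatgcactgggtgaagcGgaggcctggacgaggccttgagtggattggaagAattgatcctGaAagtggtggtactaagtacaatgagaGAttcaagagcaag
IGHV1-72*01 cl186: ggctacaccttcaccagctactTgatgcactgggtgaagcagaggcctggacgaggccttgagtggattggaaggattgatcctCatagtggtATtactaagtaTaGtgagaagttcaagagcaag
IGHV1-72*01 cl389: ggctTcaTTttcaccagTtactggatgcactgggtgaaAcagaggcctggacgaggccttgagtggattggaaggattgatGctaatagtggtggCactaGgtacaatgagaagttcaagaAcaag
IGHV1-72*01 cl432: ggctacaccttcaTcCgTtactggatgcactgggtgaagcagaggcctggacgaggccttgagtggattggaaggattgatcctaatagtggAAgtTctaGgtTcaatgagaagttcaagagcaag
IGHV1-22*01 germline: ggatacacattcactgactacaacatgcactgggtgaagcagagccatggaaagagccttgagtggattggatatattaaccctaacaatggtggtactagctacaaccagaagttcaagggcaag
IGHV1-22*01 cl541, plate 10: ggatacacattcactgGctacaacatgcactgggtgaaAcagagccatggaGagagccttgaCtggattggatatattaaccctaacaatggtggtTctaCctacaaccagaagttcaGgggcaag
IGHV1-22*01 cl541, plate 5: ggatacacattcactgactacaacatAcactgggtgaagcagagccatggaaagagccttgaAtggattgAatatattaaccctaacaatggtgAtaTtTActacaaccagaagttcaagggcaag
The chains shown are the most mutated of 2 clones with and 2 clones without G113T, and 2 of the 3 most mutated of the 10 dark zone cells of clone cl541. They carried 6 to 9 changes each in this stretch, where the 33 IGHV1-72*01 cells had 0 to 9 with a median of 4, 7 of them 6 or more, and the cl541 cells 2 to 7 with a median of 4.5. Clones cl647 and cl186 share G113T, which replaces tryptophan by leucine (W38L) and is known to raise the affinity for NP, whereas cl389 and cl432 lack it. Both chains shown of clone cl541 differ from their germline at position 197, by G197C (S66T) in one and G197A (S66N) in the other. These 2 chains share no change in this stretch. The remaining chain of the 3 most mutated, also with 7 changes and not shown, has no change at position 197. It shares G153A and C194T with the chain of plate 5. In the GENCODE annotation of GRCm38, Ighv1-72 lies on the minus strand of chromosome 12 at 115757984 to 115758461, and Ighv1-22 on the same strand at 114746273 to 114746706. Both are immunoglobulin variable segments.

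Among 33 dark zone heavy chains of IGHV1-72*01 that could be compared with their germline, 14 carried G113T, and these fell into 9 of 21 clones. The same change stood in 6 of 13 light zone and 36 of 62 plasma cells. G221A (S74N), at a hotspot base in the third framework, was the second most frequent change, with 8 of 33 dark zone cells in 8 different clones, against 1 of 13 light zone and 2 of 62 plasma cells. G210C (K70N) followed with 6 of 33 dark zone cells. In IGHV1-22*01, G197C stood in 10 of 26 dark zone cells from 4 of 9 clones, in 1 of 11 light zone cells and in 14 of 39 plasma cells. These changes were picked by their number of dark zone cells, at least 4, so lower shares in other states are in part built in. Plasma cell chains also carried fewer mutations, as given below. Cells that the authors placed in 1 clone may share mutations by descent and are not independent, so these shares are a description and were not tested.

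Mutations gathered at hotspots in dark zone cells as they did in light zone and plasma cells. Over 242 heavy chains, 914 of 68718 compared bases were mutated (1.33%, with plate means from 0.465 to 1.84%). A hotspot base was taken as the third base of AAC, AGC, TAC or TGC, or on the other strand the first base of GTT, GCT, GTA or GCA, and 14.4% of compared bases fell in such a motif. Of hotspot bases 3.91% were mutated (387 of 9906), against 0.689% of the other C and G bases and 1.05% of A and T bases. Hotspot bases were mutated more often than other C and G bases on 19 of 19 plates. AGCT, where the motifs of the 2 strands overlap and which is part of the hotspot count, had 7.49% of its inner G and C bases mutated. It exceeded other C and G bases on all 18 plates that held it in at least 5 cells. CDR2 was mutated at 2.71% and CDR1 at 1.91% of their bases, against 0.617, 1.18 and 1.44% in the first, the second and the third framework, and CDR2 exceeded the second framework on all 19 plates. Of the mutations, 78.8% changed the amino acid, 88.7% in the CDRs and 74.7% in the frameworks. Counted once per clone, 824 distinct mutations remained, and 41.1% of them lay at hotspot bases. Over all mutations this share was 42.3% in dark zone, 43.1% in light zone and 44.7% in plasma cells. Hotspot and other C and G bases were mutated at 3.47 and 0.508% in light zone and at 1.31 and 0.234% in plasma cells.

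**Figure D1:**
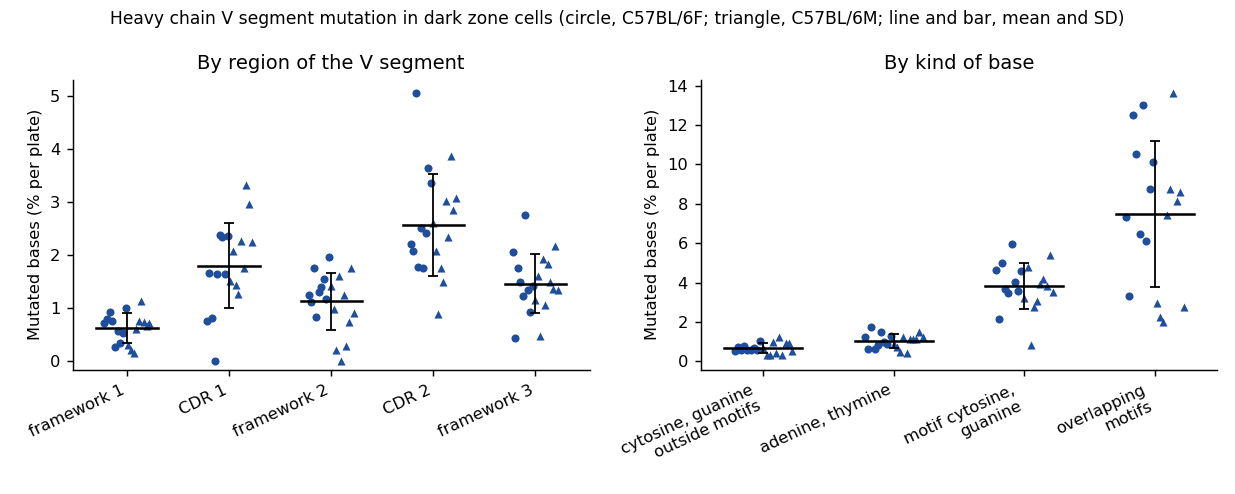
Mutated bases of the heavy chain variable segment in dark zone cells, in percent of the compared bases of each plate, by region (left) and by kind of base (right), with 1 point per plate (circles C57BL/6F, triangles C57BL/6M) and lines and bars for mean and SD. CDR2 stands above the second framework on all 19 plates, and motif bases and overlapping AGCT motifs, with 3.91 and 7.49% over all cells, stand above the other cytosines and guanines.

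Dark zone cells carried more light chain mutations than light zone cells and more mutations of both chains than plasma cells. Plate means of light chain mutations ran from 1.65 to 4.07 with a median of 2.52 in dark zone cells and from 1.17 to 3.25 with a median of 1.91 in light zone cells. The dark zone mean was the higher one on 14 of 19 plates and the 2 ranges overlapped. The difference of 0.578 ± 0.849 mutations (SD over 19 plates) passed a two-sided permutation test by sign flips of the plate differences with 100000 resamples (adjusted p = 0.00935 over 4 tests). It was 0.843 on C57BL/6F plates and 0.341 on C57BL/6M plates, where it did not pass, and it did not pass among G1 cells (0.489). For heavy chains the plate means were 4.12 ± 1.21 in dark and 3.55 ± 0.992 in light zone cells (SD, 16 plates), with 10 of 16 plates higher. That difference did not pass the same permutation test (adjusted p = 0.144), which does not show that the states are alike, and its mean turned to -0.042 on the C57BL/6M plates alone. Against plasma cells, dark zone heavy chains stood at 4.23 ± 1.28 and plasma cell chains at 1.41 ± 0.460 mutations, higher on 19 of 19 plates (permutation adjusted p = 4e-05). No heavy chain mutation was found in 25 of 243 dark zone cells (10.3%), 26 of 151 light zone cells and 263 of 475 plasma cells (55.4%). A heavy chain was deposited for 243 of 452 dark zone, 151 of 278 light zone and 475 of 480 plasma cells. Among dark zone cells it was there for 96 of 221 in G1 and 88 of 132 in G2M. Heavy chain values thus cover only a part of the dark and light zone cells, and the effect of this was not tested. Whether receptor sequences entered the annotation is not given in the sources used here.

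Between dark and light zone cells, the annotation largely followed a cut in 2 deposited scores per cell. The dark zone minus the light zone score ran from -0.116 to 0.360 in dark zone cells with a median of 0.025, and from -0.615 to -0.0468 in light zone cells with a median of -0.166. Of the dark zone cells 72 (15.9%) lay at or under the highest light zone cell, and 59 of 278 light zone cells lay at or above the lowest dark zone cell. Cells of other states lay in the dark zone range as well. The median was -0.0949 in memory-like pre-plasma cells, and 14 of 48 light-to-dark zone cells had the dark above the light zone score. Against light zone cells, the state is thus a range along these scores more than a separate cluster, and dark zone cells fell into 6 of the authors' clusters. Because the scores are made of transcripts and the annotation may rest on them, transcript tests between annotated states are given as a description only. The sort gates, set by surface protein, give a contrast that does not rest on transcripts. Of the dark zone cells, 249 came from the DZ gate (55.1%), 139 from the LZ gate (30.8%), 63 from the PrePC gate (13.9%) and 1 from the PC gate. Conversely 76.6% of the 325 cells of the DZ gate and 37.9% of the 367 cells of the LZ gate were annotated dark zone.

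Depth differed between the states, with a median of 56254 counts and 1425 genes in dark zone cells, 43120 counts and 1148.5 genes in light zone cells, 161602 counts and 3020 genes in light-to-dark zone cells, and 70190 counts and 1510 genes in plasma cells. Counts of a state were summed per plate, and plates are the replicates, so p-values measure the spread between plates, which may be technical. Plate 6 of C57BL/6F held 3 dark zone cells and entered no comparison. Plates 2 and 4, both C57BL/6F, had a median of 473 and 417.5 genes per dark zone cell, the fewest of the 19 plates. The sums alone do not tell fewer cells with a transcript from less of it per cell. Cells with a count of Gcsam made up 75.9% of dark zone and 38.1% of light zone cells. For Neil1 these shares were 69.9 and 39.6%, for Hmces 74.1 and 46.0%, for Rgcc 39.2 and 10.1%, and for Ccnb2 48.2 and 25.9%. For Cd83 they were 60.8 and 86.7%. The part of depth in these shares was not tested. Markers of other cells were low in the dark zone cells, given as CPM, counts scaled to library size. The T cell list summed to 38 to 409 CPM per plate, almost all of it Lck, with Cd3g and Cd8a at 0 and 5 of 7 measured genes above 0. The myeloid list summed to 0 to 79.9 CPM with Csf1r and Fcgr1 at 0, and the red cell list to 3.30 to 53.5 CPM with Hba-a1 and Hba-a2 at 0. The stromal and endothelial list summed to 0 to 130 CPM, all of it from 1 gene, and the other 4 of 5 genes had no count. Of plasma cell genes, Sdc1 had a count in 7, Prdm1 in 1 and Fkbp11 in 3 of the 452 cells, whereas Xbp1 had one in 213 (47.1%) and Jchain in 439 (97.1%).

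Against light zone cells, the dark zone cells had higher levels of all 5 markers, among them the DNA damage genes Neil1 and Hmces and the cyclin gene Ccnb2, and lower levels of Cd83 and of 7 of 13 MHC class II genes. Each value below is the lowest, median and highest CPM over 19 plates, scaled by TMM, and each change is the log2 fold change of edgeR's quasi-likelihood test with its SE. Gcsam, which encodes a germinal centre signalling adaptor that limits motility, ran from 738 over 978 to 1301 CPM in dark zone and from 74.7 over 296 to 744 CPM in light zone cells. It was higher in dark zone cells on 19 of 19 plates although the ranges overlapped at their ends, with a change of 1.88 ± 0.22 (edgeR adjusted p = 1.48e-06). Neil1, a DNA glycosylase that cuts out oxidised bases, ran from 365 over 894 to 1432 CPM against 82.2 over 297 to 1029 CPM. Its ranges overlapped, and it was again higher on 19 of 19 plates (1.60 ± 0.18). Hmces, which shields abasic sites in single-stranded DNA, ran from 665 over 1038 to 1345 against 5.57 over 319 to 689 CPM. The change of Hmces was 1.78 ± 0.24, with 19 of 19 plates higher.

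Rgcc, a regulator of cell cycle and complement response, ran from 241 over 460 to 1147 CPM in dark zone and from 0 over 90.3 to 551 CPM in light zone cells. Its change was 3.40 ± 0.79 (edgeR adjusted p = 0.017) and 18 of 19 plates were higher. Ccnb2, a cyclin of mitotic entry, ran from 422 over 667 to 1073 against 3.79 over 241 to 625 CPM. Its change was 1.99 ± 0.34, also with 18 of 19 plates higher. All 5 marker genes given for the dark zone state were higher in cells of that name. The annotation may rest on these same transcripts, so this does not test the name. Cd83, which stabilises MHC class II and CD86 at the surface of activated B cells, ran from 321 over 945 to 1425 against 2154 over 3260 to 5002 CPM. Here the plates did not overlap, with a change of -1.83 ± 0.10 (edgeR adjusted p = 2.99e-13). Pafah1b3, a catalytic subunit of a platelet-activating factor acetylhydrolase, was the only other gene without overlap, with 391 to 1042 CPM in dark and 0 to 314 CPM in light zone cells (2.62 ± 0.43).

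**Figure D2:**
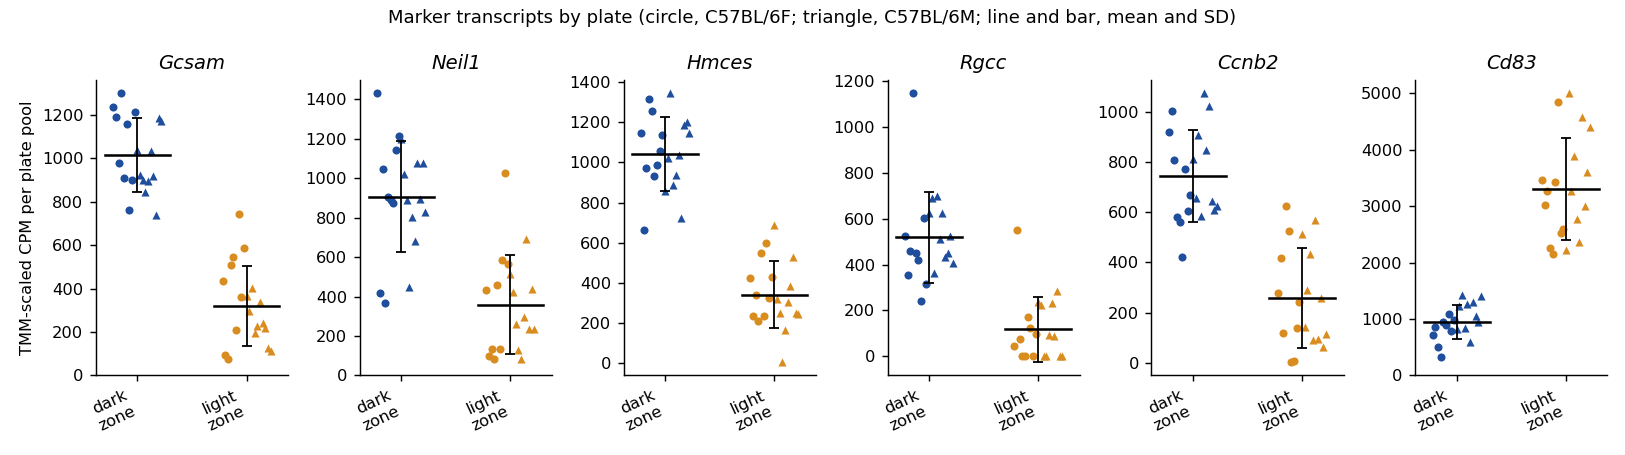
TMM-scaled CPM of the 5 dark zone marker genes and of Cd83 in the dark zone and light zone pools of 19 plates (circles C57BL/6F, triangles C57BL/6M, lines and bars mean and SD, linear axes). Cd83 is the 1 gene of the 6 whose plates do not overlap, with 321 to 1425 CPM in dark zone and 2154 to 5002 CPM in light zone cells.

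Over all 5447 genes tested, 77 were called (1.41%), 46 higher in dark zone cells (0.845%) and 31 lower (0.569%). With equal cell numbers per pool the split was 29 higher and 38 lower, and the median of all genes fell from 0.44 to 0.16, and the medians of the lists below are to be read against the 0.44. Without plates 2 and 4, 44 genes were called higher and 32 lower. The list of dark zone genes had 11 of 25 tested members higher and none lower, with a median of 1.60 against 0.44 over all genes. Besides the markers these included Hmgb2, Nuggc, Cdc20, Pafah1b3 and Polh. The hypermutation and repair list, with a median of 0.54, lay near all genes, and 5 of 33 were higher and none lower, among them Neil1, Hmces, the chromatin protein gene Hmgb2 at 0.70 ± 0.16, and Polh. Polh encodes DNA polymerase eta, which copies past damaged bases and makes the A and T mutations of antibody genes. It stood at a mean of 40.8 CPM in dark and 3.69 CPM in light zone cells and was higher on 15 of 19 plates, but it no longer passed the test without plates 2 and 4. Nuggc, a nuclear GTPase of germinal centre B cells that limits DNA damage, changed by 1.49 ± 0.27. Mbd2, a reader of methylated DNA, ran from 91.8 over 287 to 519 against 0 over 8.43 to 195 CPM and was higher on all 19 plates.

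The list of G2 and M phase genes had 6 of 41 members higher (Ccnb2, Cdc20, Cdkn3, Cdca8, Hmgb2 and Ckap2) and none lower, with a median of 1.4 against 0.44 over all genes. Cdc20, an activator of the anaphase-promoting complex, changed by 1.93 ± 0.41. None of 30 S phase genes was called. The proliferation marker gene Mki67 ran from 64.6 over 294 to 482 CPM against 3.14 over 165 to 553 CPM and did not pass the test (0.89 ± 0.38, edgeR adjusted p = 0.355). Bcl6, the repressor that keeps the germinal centre state, at 2.37 ± 1.11, and Myc, a driver of growth, at 0.65 ± 1.33, were sparse and did not pass either (edgeR adjusted p = 0.432 and 0.896). Summed over all cells, Bcl6 stood at 35.8 CPM in dark and 36.8 CPM in light zone cells, and Myc at 48.5 against 64.1 CPM. These levels do not show the rises that were fitted. The Cxcr4 transcript was too sparse for the test, with 296 counts in 49 of 452 dark zone cells (10.8%) against 9 of 278 light zone and 36 of 480 plasma cells. The genes with the highest fitted change were sparse as well: Pipox stood at a mean of 78.5 against 6.90 CPM and Ckap2 at 74.6 against 10.7 CPM. Their fitted changes of 8.14 and 6.41 log2 exceed the 3.51 and 2.80 log2 of those means.

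Some genes of antigen presentation and activation were lower in dark zone cells. Of 13 MHC class II genes, 7 were lower and none higher (median -0.52 against 0.44 over all genes). H2-Aa, an MHC class II alpha chain, changed by -0.56 ± 0.06, Cd74, the invariant chain, by -0.43 ± 0.05, and H2-DMb2, which loads peptides, by -0.65 ± 0.08. Their levels still overlapped between the states, and H2-Aa was lower on all 19 plates. The light zone and activation list, with a median of -0.53, had 5 of 24 members lower, namely Cd83, Cd74, Il4i1 at -2.32 ± 0.45, Nfkbia at -1.74 ± 0.28 and Fcer2a at -1.53 ± 0.29. Il4i1 is an amino acid oxidase induced by IL-4, Nfkbia encodes the NF-kappa-B inhibitor I-kappa-B alpha, and Fcer2a encodes CD23. Of 26 genes for B cell identity and signalling from the B cell receptor, with a median of -0.13, 4 were lower: the inhibitory receptor Cd72 at -1.66 ± 0.31, the phosphatase Ptpn6, the adaptor Lat2 and Ms4a1, which encodes CD20. Samsn1, an adaptor that dampens B cell activation, changed by -2.03 ± 0.42. Jchain and Mzb1, which serve antibody assembly and secretion, were higher by 0.58 ± 0.10 and 0.61 ± 0.11 log2, while the ER chaperone gene Hspa5 changed by -0.82 ± 0.11.

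Between the sort gates fewer genes passed, among them 3 of the 5 markers and Cd83. Between the DZ and the LZ gate, 18 of 5904 genes were called (0.305%), 11 higher (0.186%) and 7 lower (0.119%). Rgcc ran from 210 over 446 to 1209 CPM in the DZ gate and from 45.0 over 132 to 499 CPM in the LZ gate, a change of 1.78 ± 0.28 (edgeR adjusted p = 0.000805). Hmces changed by 0.93 ± 0.14, Gcsam by 0.79 ± 0.16, Pafah1b3 by 1.52 ± 0.20 and Mbd2 by 1.27 ± 0.26. Cd83 changed by -1.13 ± 0.14 and Il4i1 by -2.59 ± 0.40, and Il4i1 was lower in the DZ gate on 19 of 19 plates. Jchain was higher by 0.54 ± 0.08. Neil1 at 0.73 ± 0.22, Nuggc at 1.19 ± 0.35 and Ccnb2 at 0.38 ± 0.21 did not pass the test between gates (edgeR adjusted p = 0.322, 0.299 and 1). Of the hypermutation and repair list 1 of 35 was called, Hmces, and of the 26 genes for B cell identity and receptor signalling none. None of 42 G2 and M phase genes was called (median -0.24 against -0.11 over all genes), and Ckap2, Cdc20 and Mki67 turned to -0.78, -0.18 and -0.41 log2. Of the 77 genes called between the annotated states, 16 also passed between the gates, with the same sign, which is 20.8% of the 77 and 88.9% of the 18. Both contrasts use largely the same cells, so this overlap is in part built in.

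**Figure D3:**
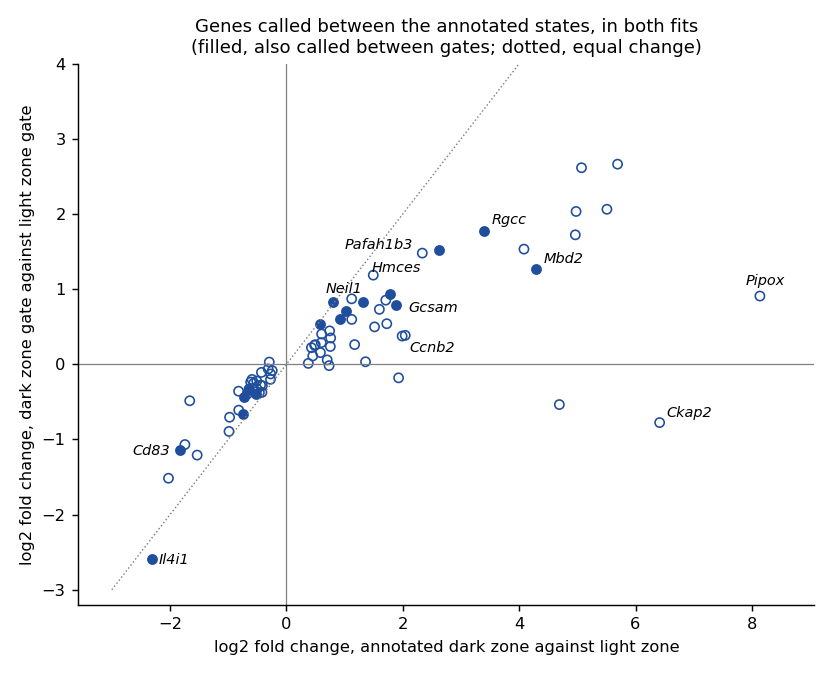
Log2 fold change of each gene called between the annotated states (horizontal axis) against its change between the DZ and LZ gates (vertical axis), with filled points for the 16 genes called in the same direction between gates and a dotted line of equal change. Most points lie nearer to 0 between the gates, while Il4i1 lies at -2.32 and -2.59 and Ckap2 at 6.41 and -0.78.

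Surface proteins set dark zone apart from light zone cells. On the inverse hyperbolic sine scale of the deposited fluorescence, plate means of CXCR4 ran from 2.49 over 2.70 to 2.90 in dark zone and from 1.75 over 2.13 to 2.45 in light zone cells. The plates did not overlap, with a difference of 0.557 ± 0.231 (SD, 19 plates; two-sided permutation test by sign flips, adjusted p = 4.44e-05 over 20 tests). CD86, a costimulatory ligand for T cells, ran from 1.79 over 2.05 to 2.69 against 2.34 over 2.72 to 3.15 and was lower in dark zone cells on 18 of 19 plates (difference -0.649, permutation adjusted p = 6e-05). GL7, a glycan epitope of germinal centre B cells, ran from 1.75 over 2.24 to 2.76 against 0.969 over 1.78 to 2.65 and was higher on 17 of 19 plates (difference 0.369, permutation adjusted p = 0.00035), but not past the threshold on C57BL/6M plates alone (0.243). GL7 went the other way between the gates, at -0.095, where 6 of 19 plates were higher. The remaining 7 channels did not pass the test between these states. CXCR4 and CD86 are the usual proteins by which dark and light zone cells are gated, and whether the gate entered the annotation is not given in the sources used here.

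**Figure D4:**
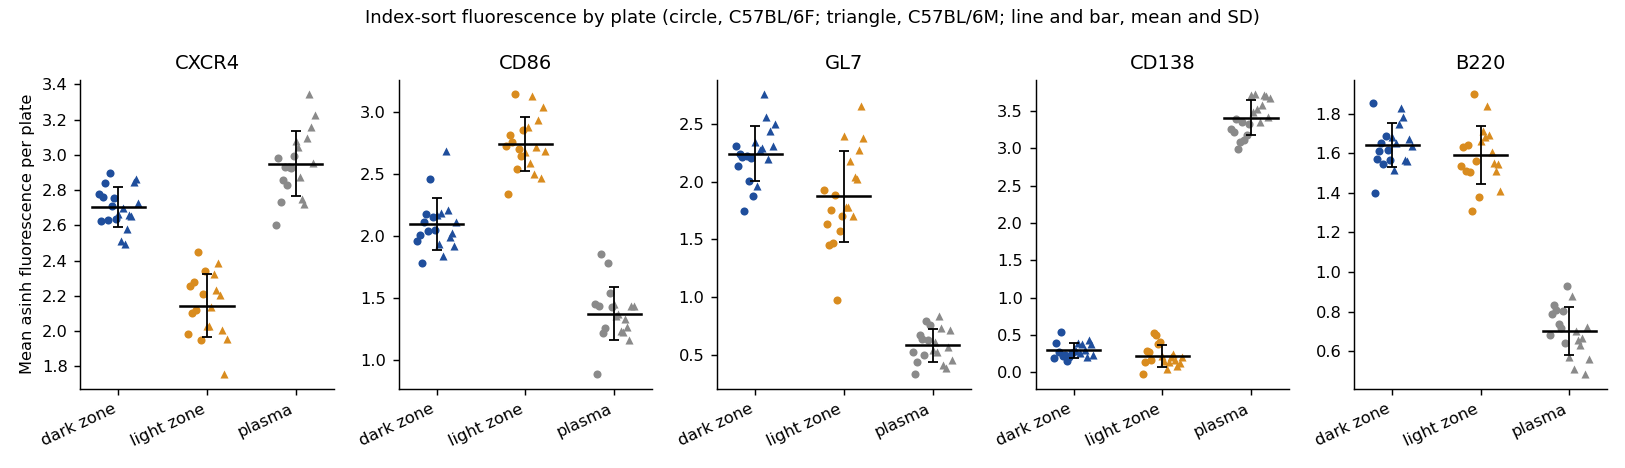
Plate means of index-sort fluorescence (inverse hyperbolic sine scale, axes not starting at 0) of CXCR4, CD86, GL7, CD138 and B220 in dark zone, light zone and plasma cells, with 1 point per plate (circles C57BL/6F, triangles C57BL/6M) and lines and bars for mean and SD. CXCR4 of dark zone cells, 2.49 to 2.90, lies above all light zone plates, 1.75 to 2.45.

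The dark zone cells of the 3 main gates differed in these proteins as the gates define, and less in the score. The 249 from the DZ gate had a median CXCR4 of 2.81 and CD86 of 1.67, the 139 from the LZ gate 2.45 and 3.0, and the 63 from the PrePC gate 3.33 and 2.97. Median scores, dark minus light, were 0.0463, -0.0132 and 0.0193. Mean heavy chain mutations were 4.83, 3.51 and 3.56 over 133, 75 and 34 cells. Between the DZ and LZ gates as a whole, heavy chain mutations stood at 4.68 ± 0.996 and 3.45 ± 1.05 (SD, 15 plates), a difference of 1.23 ± 1.13 with 12 of 15 plates higher (permutation adjusted p = 0.00342). Light chains stood at 2.66 and 2.25 (permutation adjusted p = 0.019). Whether the gates and the annotated states differ in this contrast was not tested.

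More dark zone than light zone cells were called G2M in the deposited cell cycle column. The phase shares of all dark zone cells were 48.9% G1, 21.9% S and 29.2% G2M. Plate shares of G2M ran from 0 over 31 to 52.2% in dark zone and from 0 over 14.3 to 30.0% in light zone cells, higher on 16 of 19 plates with overlapping ranges. The means were 28.2 ± 12 and 14.6 ± 8.17% (permutation adjusted p = 0.00132 over 6 tests). G1 was lower, 50.1 against 59.8% (permutation adjusted p = 0.0206), though not past the threshold on C57BL/6M plates alone (-3.27 percentage points), and S, 21.7 against 25.6%, did not pass (permutation adjusted p = 0.275). Between the sort gates, G2M stood at 21.2 and 22.0% (permutation adjusted p = 0.73) and G1 at 57.3 and 50.2% (permutation adjusted p = 0.0635). The phase is called from transcripts, among them genes such as Ccnb2 that also mark the dark zone state, and cells in S and G2M had more counts (medians of 76516 and 72152) than cells in G1 (41900). The part of depth in the phase calls was not tested.

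**Figure D5:**
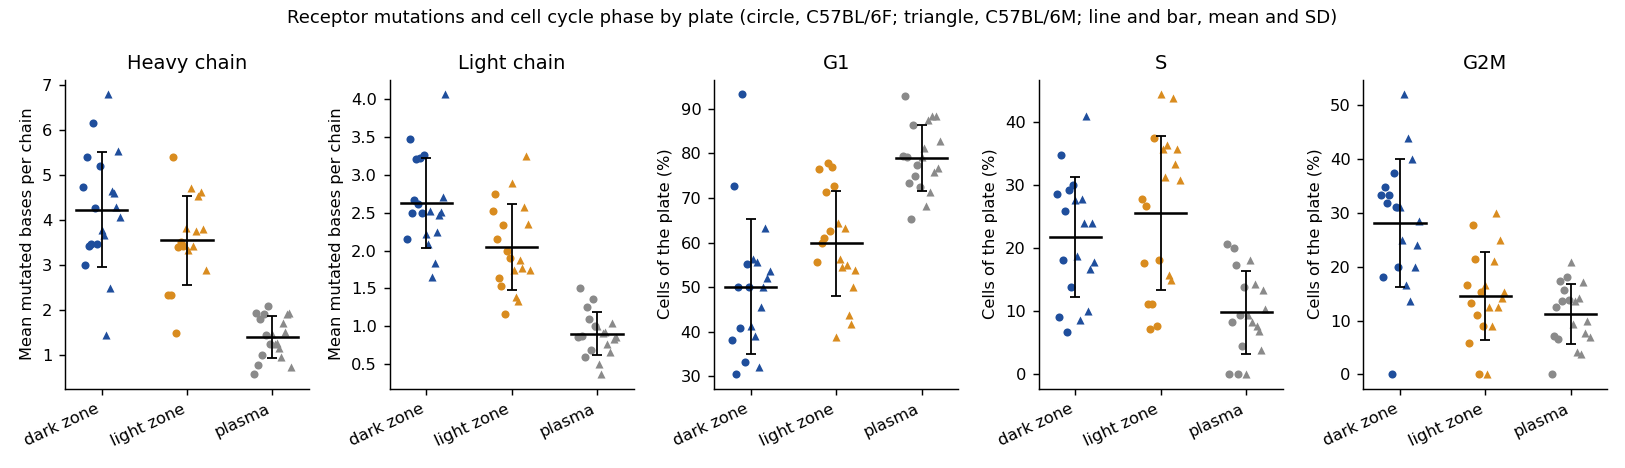
Plate means of mutated bases per heavy and light chain, and plate shares of cells in G1, S and G2M in percent, for dark zone, light zone and plasma cells, with 1 point per plate (circles C57BL/6F, triangles C57BL/6M) and lines and bars for mean and SD. Dark zone cells average 28.2% G2M against 14.6% in light zone cells, and their light chain means, 1.65 to 4.07, overlap the light zone range.

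Against plasma cells on the same 19 plates, dark zone cells had higher levels of 17 of 25 germinal centre genes and lower levels of 21 of 22 plasma cell genes. Of 6994 genes, 1958 were called (28.0%), 713 higher (10.2%) and 1245 lower (17.8%), and scaling by library size alone gave 1013 higher and 1002 lower. Of the dark zone list 10 of 26 tested members were higher and 2 lower, Pafah1b3 and Fcrla. Gcsam changed by 5.96 ± 0.68, Neil1 by 3.27 ± 0.40, Hmces by 2.66 ± 0.27 and Ccnb2 by 1.46 ± 0.16, each higher on 19 of 19 plates. Rgcc did not pass the test, at 216 over 406 to 1011 CPM against 353 over 551 to 955 CPM (-0.33 ± 0.15, edgeR adjusted p = 0.115). It passed as lower in dark zone cells without plates 2 and 4 (-0.34), among G1 cells alone (-0.70) and with cells thinned to equal counts (-0.75).

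Of 25 genes of germinal centre identity 17 were higher and 5 lower in dark zone cells (median 2.35 against -0.18 over all genes). Rgs13, a brake on chemokine receptor signalling, ran from 237 over 543 to 843 CPM against 0 over 0.455 to 98.6 CPM. The death receptor gene Fas changed by 2.99 ± 0.38. The B lineage factors Bach2 and Pax5 changed by 9.20 ± 0.65 and 8.99 ± 0.78, and Id3, an inhibitor of E proteins, by 9.41 ± 0.68. The D cyclins parted: Ccnd3, the cyclin known for dark zone division, was higher by 4.17 ± 0.47, at 122 over 276 to 486 CPM against 0 over 19.4 to 69.9 CPM. Ccnd2 changed by -7.92 ± 0.74, at 0 over 0.718 to 123 CPM against 298 over 536 to 1019 CPM. Cell cycle genes were higher in dark zone cells in 12 of 30 (S phase) and 15 of 42 (G2 and M phase), with none lower. In phase shares, dark zone cells had 50.1% G1 against 79%, 21.7% S against 9.81% and 28.2% G2M against 11.2% (permutation adjusted p = 0.00018, 0.0002 and 0.00018).

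Of the plasma cell identity list 21 of 22 genes were lower in dark zone cells, and all 33 genes of ER folding and secretion were lower (median -3.49). Irf4, a master regulator of plasma cells, ran from 0 over 0 to 12.6 CPM against 65.9 over 188 to 433 CPM. The chaperone gene Hsp90b1 changed by -5.56 ± 0.25. Fkbp11, a folding enzyme of secretory cells, had 3 counts in the dark zone pools and 59821 in the plasma pools, a ratio of 12993 with a counting interval of 4446 to 63007. Tnfrsf17, which encodes the survival receptor BCMA, had 0 counts in the dark zone pools and was at least 1141-fold lower against a floor of 3 counts over the group. MHC class II genes were higher in 9 of 13, with Ctss lower, and B cell receptor and identity genes in 17 of 26. Lck, counted here as a T cell marker, was among the higher genes at 4.73 ± 0.75 with Trac in 1 cell of the dark zone. Hbb-bt, a haemoglobin gene, was higher as well at 7.59 ± 0.86, and the red cell list summed to 3.30 to 53.5 CPM per dark zone plate and 0 to 1.16 CPM per plasma cell plate. The part of red cell RNA in other results was not tested. At the surface, CD138 differed by -3.11, PSGL1 by -2.0, GL7 by 1.66, B220 by 0.940 and CXCR4 by -0.247, so that plasma cells had the higher CXCR4 signal, although not past the threshold on C57BL/6F plates alone (-0.128).

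The light-to-dark zone state is the annotated state closest in name, and 9 plates held at least 3 of its cells beside dark zone cells. Dark zone cells had lower levels of 8 of 26 growth genes and higher levels of 8 of 25 B cell receptor and identity and 7 of 13 MHC class II genes. Of 5451 genes 200 were called (3.67%), 161 higher in dark zone cells (2.95%) and 39 lower (0.715%). The split was 102 to 97 when scaled by library size alone. With the same number of cells in both pools of a plate it was 14 to 34 of 3432 tested genes, and the median of all genes moved from 0.38 to -1.31. The list counts with equal cell numbers below are to be read against these. None of these 9 plates was plate 2 or 4. Of 26 Myc targets and ribosome biogenesis genes 8 were lower and none higher, and with equal cell numbers 5 were lower. Mrto4, a ribosome assembly factor, ran from 0.815 over 91.9 to 134 CPM in dark zone and from 52.8 over 298 to 588 CPM in light-to-dark zone cells and was lower on 9 of 9 plates. Gart, an enzyme of purine synthesis, ran from 0 over 61.2 to 122 against 156 over 250 to 388 CPM, without overlap (-2.37 ± 0.60). The higher MHC class II genes and B cell receptor and identity genes fell to 3 of 12 and 3 of 24 with equal cell numbers. Of the dark zone list 5 of 25 were higher, among them Gcsam, Neil1, Nuggc and Pafah1b3, and 1 with equal cell numbers. The light-to-dark zone cells were deeper, as given above, and the part of depth in these counts was not tested.

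Across the 7 states, levels summed over all cells of a state showed which markers are shared. Gcsam stood at 934 CPM in dark zone, 616 in light-to-dark zone, 295 in light zone and 26.2 in plasma cells. Over these states Neil1 kept that order with 871, 438, 354 and 102 CPM, and so did Hmces with 993, 499, 338 and 144 CPM. Pre-memory cells stood at 477 CPM of Neil1, above light-to-dark zone cells. Memory-like pre-plasma cells stood at 185 CPM of Hmces, above plasma cells. Ccnb2 stood at 712 CPM in dark zone, 556 in light-to-dark zone and 512 in activated pre-plasma cells, and 223 in plasma cells. Rgcc did not follow the order, with 474 CPM in dark zone, 489 in plasma and 768 in memory-like pre-plasma cells. Cd83 stood at 900 CPM in dark zone, 2956 in light zone, 894 in light-to-dark zone and 3624 in pre-memory cells. Small states rest on few cells and few plates, so their order was not tested. In GRCm38, Gcsam lies on chromosome 16 at 45610380 to 45622867, Neil1 on chromosome 9 at 57142800 to 57148305, Hmces on chromosome 6 at 87913935 to 87936629, Rgcc on chromosome 14 at 79288756 to 79301645 and Ccnb2 on chromosome 9 at 70407692 to 70421547.

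Between the sampleIDs, the genes called in dark zone cells included 4 of the oxidative phosphorylation list and 1 gene of the Y chromosome. Of 6395 genes 10 were called (0.156%), all higher in C57BL/6M. Without plates 2 and 4, both of C57BL/6F, 48 were called, 37 higher and 11 lower. Son, which encodes a splicing cofactor, ran from 300.2 over 710 to 2009.9 CPM in C57BL/6M and from 72.5 over 151 to 341 CPM in C57BL/6F, with ranges that overlapped at their ends (2.09 ± 0.32, edgeR adjusted p = 0.0034). Eif2s3y, a gene of the Y chromosome, ran from 60.4 over 178 to 281 CPM against 0 over 0 to 32.1 CPM, which matches the letters of the sampleIDs. Of the oxidative phosphorylation list 4 of 24 were higher, Ndufa1, Ndufa2, Cox6c and Atp5j, with a median of 0.59 against -0.026 over all genes. No dark zone, hypermutation or light zone gene was called, and none of the fluorescence, mutation or phase measures differed past the threshold. The dark minus light change differed between the sampleIDs for 0 of 5447 genes in edgeR, with 115 at an unadjusted p under 0.05 and 17 called by DESeq2.

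Dark zone cells with a heavy chain fell into 177 of the authors' clones. Of these clones 31 held at least 2 dark zone cells, 97 cells together, and 117 held dark zone cells only. A light zone cell stood in 34 clones and a plasma cell in 38, and the latter held 83 dark zone cells. Clone cl541 of IGHV1-22*01 had 22 cells, all from C57BL/6F, with 10 dark zone and 9 plasma cells, and the median of heavy chain mutations was 7 in the former and 5 in the latter. Clone cl486 of the same segment had 36 cells, 4 from C57BL/6F and 32 from C57BL/6M. Of these cells 8 were dark zone and 15 plasma cells, with medians of 9 and 7 mutations, beside 4 activated pre-plasma and 6 light-to-dark zone cells. Cells of both sampleIDs stood in 14 dark zone clones, cl486 among them, so a clone in this table need not descend from 1 cell.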

How the data were processed

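Members and gene lists were chosen with earlier results of these data known. The values deposited for each gene and cell are whole-number counts, which the authors made with STAR 2.5.3a and HTSeq 0.9.1 on mm10, per the submitters' processing notes. The filter on cells, the steps of the annotation and the treatment of doublets are not given in the sources used here, and no doublet caller was run. Spike-in RNA is a fraction of each cell's counts in the authors' table. The dark and light zone values are a score per cell without a fixed range in the authors' table. Fluorescence is the inverse hyperbolic sine of the signal over 10 (CXCR4, CD86, LiveDead) or 100, as the deposited column names say. The plates of the table were matched to a sampleID by its letter, not to single libraries.

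Counts were summed per plate and state, with at least 5 cells per pool (3 for light-to-dark zone), scaled by TMM, filtered by filterByExpr and tested with edgeR 4.0.16 (estimateDisp, glmQLFit, glmQLFTest) with the plate as block, calling genes at a Benjamini-Hochberg adjusted p under 0.05 over all genes. Each SE was derived from the F statistic. Between the sampleIDs no covariate was used. Immunoglobulin genes stayed in. Cell measures were averaged per plate and compared by sign flips, 100000 resamples, for which the smallest possible p is 1e-05, adjusted within each of 3 families of 20, 4 and 6 tests. Heavy chains were compared base by base with their deposited germline up to IMGT position 312. Dark zone pools held 703785 to 2560145 counts. Intervals and floors cover counting error only. On counts simulated for the dark against light zone comparison over 5447 genes, 12% of genes changed 2-fold and 28% of genes changed 4-fold were recovered, with 2.44% false calls, so that most changes of either size were not recovered in this design.

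Named genes were the 5 markers, called members of the dark zone, light zone and hypermutation lists (up to 8 each by size of change), up to 4 called genes of each other list, the 10 most raised and 10 most lowered called genes against light zone and 6 of each in other comparisons, without variable segments, and Bcl6, Cxcr4, Cd83, Myc and Mki67. Genes called between the gates or shown to place a list were named after their values were seen, and Trac, Sdc1 and Prdm1 as cell type markers. Of the genes and channels measured, 1 gene and 1 channel are counted in totals and not reported here. Alternatives were DESeq2 1.42.0, other scaling, filters, pool sizes, equal cell numbers, thinning of cells to 20000 counts, no block, single sampleIDs, G1 cells, sort gates and, chosen after seeing the data, leaving out plates 2 and 4 or plates 15 and 20.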

Additional observations from a re-analysis of the deposited data

Results flagged for a closer look

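Of 46 groups of plates tested, 3 had a plate that stood apart from the others of its group, about as many as chance gives at 1 in 20. Among the C57BL/6M plates, the CD86 mean of dark zone cells was 2.69 on plate 15, above 2.21 on the next plate and a median of 2.07. Rgcc, in the dark zone cells of C57BL/6F, stood at 1147 CPM on plate 4, above 601 CPM on the next plate and a median of 451 CPM, and plate 4 is 1 of the 2 plates with the fewest genes per dark zone cell. Light chain mutations of dark zone cells averaged 4.07 on plate 20 of C57BL/6M, above 2.71 on the next plate and a median of 2.36.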

How the results depend on the processing

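Against light zone cells, the 77 called genes became 569 with DESeq2, 133 with no filter, 42 with no plate block, 41 in G1 cells, 18 between sort gates, 14 on C57BL/6F plates and 31 on C57BL/6M plates. Against plasma cells, 1958 became 2961 with DESeq2 and 877 and 1208 on C57BL/6F and C57BL/6M plates. Against light-to-dark zone cells, 200 became 969 with DESeq2, 334 with no filter and 48 with equal cell numbers. Between the sampleIDs, 10 became 54 with DESeq2, 31 with no filter and 48 without plates 2 and 4. For the difference of the dark minus light change between them, 0 became 17 with DESeq2 and 1 with no filter. Of the phase shares between dark and light zone, 2 passed, which became 1 on C57BL/6M plates and 0 between gates. Of the 2 mutation counts, 1 passed, which became 0 on C57BL/6M plates, 0 in G1 cells and 2 between gates. Of the 10 fluorescence channels, 3 passed, which became 5 with at least 10 cells, 6 with the median over cells and 7 between gates. Fewer plates or cells enter the fits on 1 sampleID, in G1 cells or at equal cell numbers, and for the other changes the cause was not tested. Of the values of named genes, 1509 kept direction and call, 230 (75 results) lost the call, 7 gained it and 10 reversed, and for cell measures these were 198, 5, 12 and 11. Against light zone cells, Ckap2 (-0.78), Lancl1 (-0.54), Cdc20 (-0.18), Mki67 (-0.41) and Myc (-1.67) reversed between gates, and Myc with no plate block (-0.80) and on C57BL/6M plates (-0.46). Against plasma cells, Mki67 reversed in G1 cells (-0.49), Myc on C57BL/6M plates (-0.44) and mt-Co1 when scaled by library size alone (0.079). In dark minus light zone cells, these reversed between gates: G1 (7.08 percentage points), G2M (-0.804), CD38 (-0.063) and GL7 (-0.095). On C57BL/6F plates S (3.48), PSGL1 (-0.044), LiveDead (0.0022), CD38 (-0.022) and CD138 (-0.022) reversed, on C57BL/6M plates heavy chain mutations (-0.042), and with the median over cells CD38 (-0.048). Leaving out plates 2 and 4 ended 7 calls of named genes against light zone cells (Polh, 4833407H14Rik, Gm14446, Lancl1, Hmgn2, H2afz and Ptpn6). Pools of at least 10 light-to-dark zone cells could not be had, so that alternative was not run. No paired analysis was possible of C57BL/6M against C57BL/6F because their replicate numbers only name the samples, whereas the states were paired by plate.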
